A study of Schizosaccharomyces pombe with 70 samples.

Results

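The second hour of hydroxyurea treatment in the cds1 mutant of fission yeast (Schizosaccharomyces pombe) was followed with 6 of the 70 arrays of a series of drug time courses. The strain and time in the sample titles chose the arrays: 3 were of cds1 cells after 60 min in the drug and 3 of cds1 cells after 120 min. Hydroxyurea inhibits ribonucleotide reductase and stalls DNA replication by starving cells of deoxyribonucleotides. Asynchronous cultures in mid log phase, grown at 30 degrees centigrade, received 8 mM hydroxyurea. The 5 strains of the whole series were wild type, mutants of rad3, cds1 or chk1, and a double mutant of rad3 and sep1, each sampled at 0, 10, 30, 60 and 120 min. Every array compared the Cy5-labelled cDNA of a sample with Cy3-labelled cDNA of untreated wild type, in 1 dye orientation. A value is therefore the log2 ratio of a transcript to untreated wild type, and a difference of 1 is a 2-fold change. The labels name the mutants by gene only, without the allele, and the series text calls the 3 repeats biological.

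Cds1 is the effector kinase that stalled replication forks activate, under the apical kinase Rad3, while Chk1 transmits the signal of the DNA damage checkpoint. In wild-type fission yeast, Cds1 restrains mitosis and helps keep the MBF transcription factor, which drives genes of the G1/S transition, active while replication is stalled. Later in the cycle, forkhead factors drive genes of mitosis and cytokinesis. After division, secreted enzymes dissolve the septum between daughter cells.

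The cds1 transcript itself gave a check of the labels. It stood at -2.27, -3.01 and -2.75 on the 3 arrays at 60 min and at -2.74, -2.47 and -2.29 at 120 min, far below untreated wild type on all 6. In wild type its mean was 0.00 at 60 min and 0.41 at 120 min. Values were present for 9837 to 9852 of 9858 probes at 60 min and for 9838 to 9850 at 120 min. Between arrays of a group the correlation across genes was 0.642 to 0.825 at 60 min and 0.839 to 0.912 at 120 min; genes are not independent replicates. The number of arrays limits the precision of each value. In asynchronous cultures, fewer cells at a cycle stage and less RNA per cell cannot be told apart.

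Of 4921 genes tested, 101 rose and 78 fell between 60 and 120 min. These are 2.05% and 1.59% of the genes, 3.64% in all, at an adjusted p under 0.05 in limma's moderated test with Benjamini-Hochberg adjustment. All 3 arrays at 120 min lay above all 3 at 60 min for 8.31% of genes and below them for 6.67%; 1.99% and 1.5% of genes also passed the test. The change was at least 2-fold for 13 of the genes that rose and 7 of those that fell. The largest increases were those of SPOM_SPCC663.08C, a gene without a given name, and of SPOM_SPCC18B5.02C, a pseudogene, and 38 of the 101 genes that rose have only a systematic name. The largest decreases were those of eng1 and exg1, both in the list of septum breakdown genes. Same-numbered arrays of the 2 times deviated together, and with the replicate number as a block the counts were 211 and 168. Quantile normalization between arrays, which gives every array the same distribution of values, left 15 that rose and 28 that fell. With the deposited scaling the share of calls that were higher was 56.4%, and with quantile normalization it was 34.9%. The spread of the mean log2 ratios across genes was 0.376 (SD) at 60 min and 0.472 at 120 min.

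Levels over the whole time course were followed for the called genes. The median level of the 101 genes that rose was 0.21, 0.30, 0.56 and 1.14 after 0, 30, 60 and 120 min. At 120 min, 99 of them stood above untreated wild type. The 78 genes that fell had median levels of 0.20, 0.20, 0.09 and -0.53 at those times. At 120 min, 70 of the 78 stood below untreated wild type, and at 0 min 60 of them had stood above it. The levels at 60 and 120 min include the arrays that chose these genes and are given as a description.

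**Figure D1:**
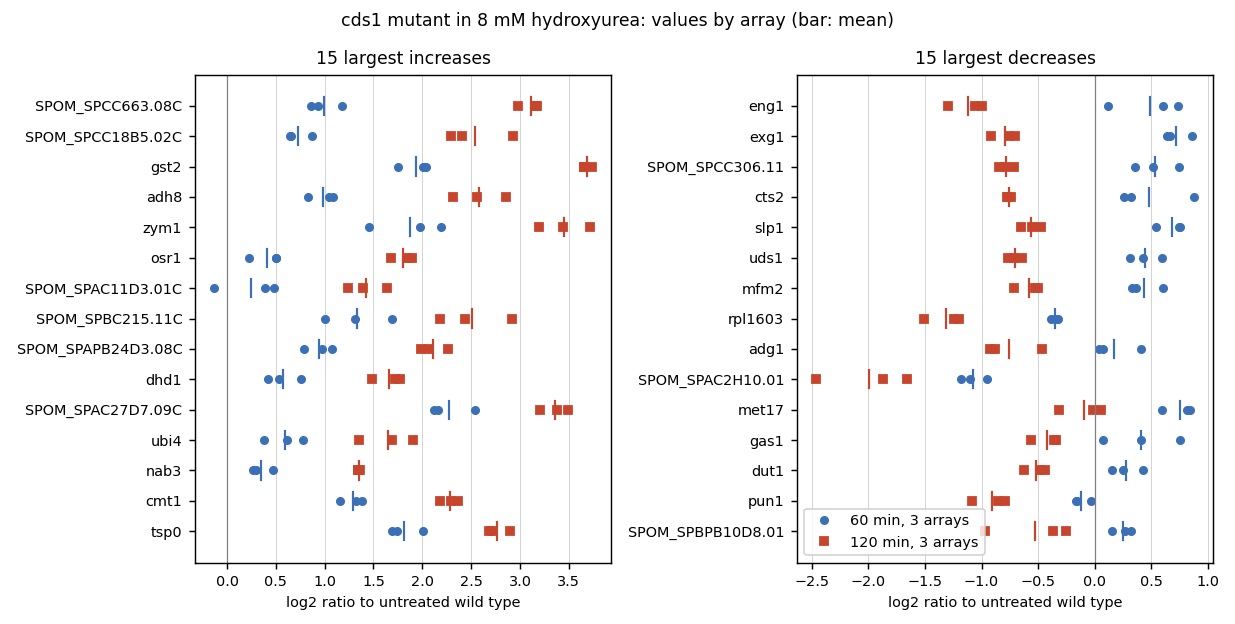
Log2 ratio to untreated wild type (x axis) on each of the 6 cds1 arrays for the 15 largest increases and 15 largest decreases (y axis); circles are the 3 arrays at 60 min, squares the 3 at 120 min, and bars the means. The arrays of the 2 times do not overlap for any of these genes, as the rule that chose them requires; the mean of SPOM_SPCC663.08C is 0.99 at 60 min and 3.11 at 120 min, and that of eng1 0.49 and -1.12.

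Genes of septum breakdown fell together. Of 9 measured members of the septum list, 8 fell, and the median change of the list was -0.76 against 0.00 over all genes tested. The only member not called was mid2, at -0.22 ± 0.10 (SE; adjusted p = 0.332). Eng1, the endo-1,3-beta-glucanase that cuts the primary septum, stood at 0.60, 0.12 and 0.74 on the 3 arrays at 60 min and at -1.30, -1.06 and -1.0 at 120 min. All 3 later arrays lay below untreated wild type and all 3 earlier ones above it. The difference was -1.60 ± 0.14 (adjusted p = 3.93e-12). Exg1, which is also in the cell wall list, had values of 0.86, 0.66 and 0.64 at 60 min and -0.92, -0.71 and -0.75 at 120 min. Its difference was -1.51 ± 0.12 (adjusted p = 5.41e-13). Agn1, the endo-1,3-alpha-glucanase that acts beside Eng1 in cell separation, fell by 0.76 on the log2 scale (SE 0.14, adjusted p = 0.000173). The other members that fell were uds1 (-1.15 ± 0.11), adg1 (-0.93 ± 0.16), adg3 (-0.56 ± 0.17), cfh4 (-0.54 ± 0.12) and mac1 (-0.46 ± 0.12).

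Of 20 measured mitosis and cytokinesis genes that forkhead factors drive, 6 fell (30%, against 1.59% of all genes), and the list's median was -0.29. These were slp1, spo12, fkh2, etd1, cdc15 and myp2. With the replicate block 9 fell, and under quantile normalization 3. Slp1, the Cdc20-family activator of the anaphase-promoting complex, stood at 0.75, 0.75 and 0.54 at 60 min and at -0.48, -0.55 and -0.65 at 120 min. The difference was -1.24 ± 0.12 (adjusted p = 4.08e-11). Fkh2, itself a forkhead transcription factor, had values of -0.02, -0.07 and 0.15 at 60 min and -0.75, -0.49 and -0.35 at 120 min, a difference of -0.55 ± 0.11 (adjusted p = 0.000622). For the contractile ring, the F-BAR protein gene cdc15 fell by 0.52 on the log2 scale and the type II myosin gene myp2 by 0.61. Etd1, which acts in the septation initiation pathway, changed by -0.69 ± 0.15 and spo12 by -0.77 ± 0.14. Not called were cdc25, the phosphatase that activates Cdc2, at -0.11 ± 0.17 (adjusted p = 0.861) and the mitotic cyclin gene cdc13, at -0.02 ± 0.16 (adjusted p = 0.984). Of 23 spindle and kinetochore genes 1 fell (4.35%, against 1.59% of all genes), with a list median of -0.10. It was the shugoshin gene sgo1 (-0.45 ± 0.13, adjusted p = 0.0332). The sgo1 call was lost without replicate 2 at 60 min or replicate 2 or 3 at 120 min (-0.53 to -0.32 over all fits that left out 1 array at a time).

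The fall of these genes in cds1 was set against the change of the same genes in rad3, wild type and chk1, by testing the difference between the 2 changes. Against rad3, 26 genes (0.528%) had a change in cds1 below that in rad3. No gene passed in the other direction in limma. There 41 of the 4921 genes tested had an unadjusted p under 0.05, against 86 with a change below that in rad3. With the replicate block the counts were 3 above and 43 below. Of the 20 mitosis and cytokinesis genes, 6 were among the 26 (slp1, spo12, fkh2, cdc15, myp2 and chs2), and of the 9 septum genes 3 were (eng1, exg1 and uds1). The difference between 60 and 120 min for exg1 was -1.51 in cds1 and 0.88 in rad3, which differ by -2.39 ± 0.18 (adjusted p = 2.6e-13). For slp1 the values were -1.24 and 0.72, which differ by -1.96 ± 0.17 (adjusted p = 1.51e-11). In rad3 the mean slp1 level was 0.64 ± 0.05 at 60 min (SD, n = 2 samples) and 1.35 ± 0.16 at 120 min (n = 3). In cds1 it was 0.68 ± 0.12 and -0.56 ± 0.09 (n = 3 each). Uds1 differed by -1.97 ± 0.17 and the uncharacterised gene SPOM_SPCC306.11 by -1.94 ± 0.19. The median change of the septum list was -0.05 in rad3 and that of the mitosis and cytokinesis list 0.27.

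In wild type and chk1 the septum list had median differences between 60 and 120 min of -1.39 and -1.22. The difference from cds1 was called for adg1 in both comparisons and for uds1 against chk1. Adg1 was at -0.93 in cds1, -2.08 in wild type and -2.01 in chk1. The difference was 1.15 ± 0.24 against wild type (adjusted p = 0.00723) and 1.08 ± 0.24 against chk1 (adjusted p = 0.014). The first of these calls was lost without wild type replicate 2 and 3 at 60 min or cds1 replicate 3 at 120 min (1.01 to 1.30 over such fits). A gene named SPAC23A1.01c in the annotation showed the same order, with differences between the times of -0.73 in cds1, -2.13 in wild type and -2.0 in chk1, and a difference of 1.39 ± 0.17 against wild type (adjusted p = 7.15e-07). None of the 20 mitosis and cytokinesis genes had a called difference from wild type or from chk1 in limma. For eng1 the difference from wild type was 0.49 ± 0.21 (adjusted p = 0.756), which was not called. The 3 comparisons between strains share the 6 cds1 arrays and are not independent of each other.

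**Figure D2:**
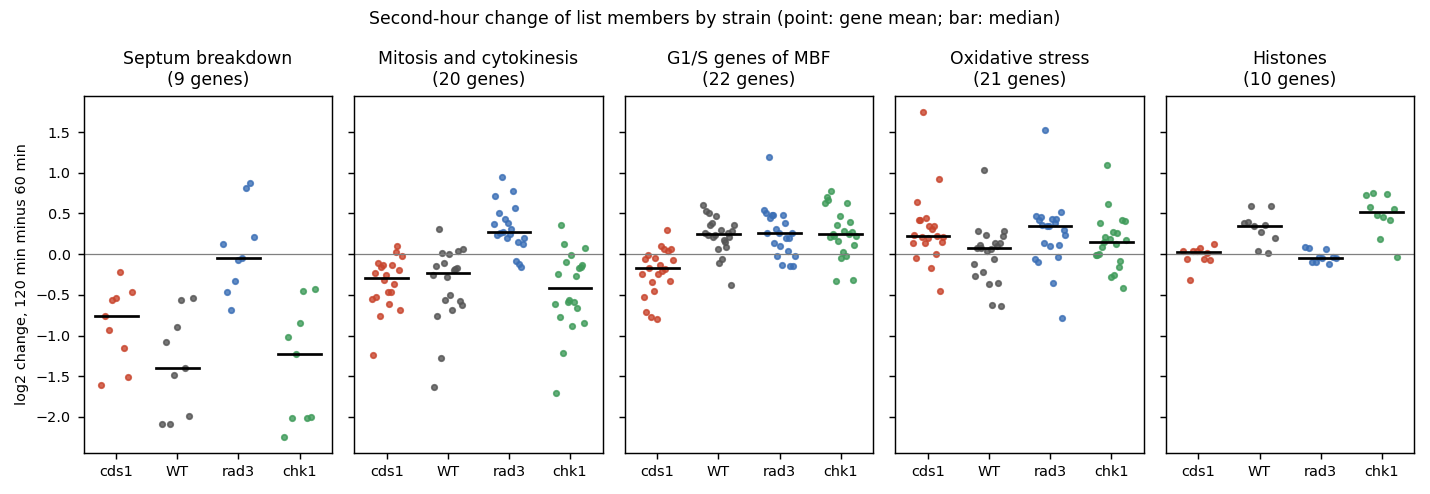
Log2 change from 60 to 120 min (y axis) of each member of 5 gene lists in cds1, wild type (WT), rad3 and chk1 (x axis); points are genes, drawn at the difference of group means, and bars are list medians. The septum median is -0.76 in cds1 and -0.05 in rad3, and the MBF median is -0.18 in cds1 and between 0.25 and 0.26 in the other 3 strains.

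Genes of the G1/S transition driven by MBF were examined next. Of 22 measured members 4 fell (dut1, mik1, cdc22 and cdt1), or 18.2% against 1.59% of all genes. The median change was -0.18, and 17 of the 22 had a change below 0, against 2459 of all 4921 genes. With the replicate block 6 fell, and under quantile normalization 2, with the calls of cdc22 and cdt1 lost. Dut1, the dUTPase that keeps uracil out of DNA, stood at 0.43, 0.15 and 0.25 at 60 min and at -0.48, -0.62 and -0.44 at 120 min. The difference was -0.79 ± 0.08 (adjusted p = 1.44e-09). Mik1, the kinase that inhibits Cdc2 beside Wee1, had values of 0.14, 0.04 and 0.10 at 60 min and -0.72, -0.64 and -0.68 at 120 min. It went from near untreated wild type to below it on every array, by -0.77 ± 0.13 (adjusted p = 7.87e-05). Cdc22, the large subunit of ribonucleotide reductase and so of the enzyme that the drug inhibits, had values of 0.99, 0.80 and 0.80 at 60 min and 0.38, 0.27 and 0.37 at 120 min. It fell by 0.52 (SE 0.11, adjusted p = 0.00146) yet stayed above untreated wild type on all 3 later arrays. Cdt1, a replication licensing factor, had values of 1.30, 0.86 and 0.66 at 60 min and 0.47, 0.19 and 0.04 at 120 min. Its difference of -0.71 ± 0.20 (adjusted p = 0.0329) lost its call without replicate 1 or 2 at 60 min or replicate 2 or 3 at 120 min (-0.85 to -0.53 over such fits). Suc22, the small subunit of ribonucleotide reductase, was at 0.03 ± 0.15 (adjusted p = 0.97).

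The second-hour change of these genes was also tested against that in the other strains. Against wild type, 20 genes differed (0.406%), 10 above and 10 below, and with the replicate block 20 above and 19 below. Against chk1, 22 genes differed (0.447%), 11 above and 11 below, and with the replicate block 41 above and 58 below. Of the 22 MBF genes, 4 were below wild type (cdc18, cdc22, dut1 and mik1), 4 below rad3 (cdc22, cdt1, dut1 and mik1) and 5 below chk1 (cdc18, cdc22, cdt2, dut1 and mik1). For the other members no difference was called, and the difference of cdt1 was called against rad3 only. Under quantile normalization the calls of mik1 against wild type, cdt1 against rad3 and cdc22 against chk1 were lost. The mik1 difference between the times was -0.77 in cds1, 0.38 in wild type, 0.48 in rad3 and 0.22 in chk1, and its difference from wild type was -1.15 ± 0.20 (adjusted p = 0.000417). The mean mik1 level at 120 min was -0.68 ± 0.04 in cds1 (SD, n = 3) and 1.16 ± 0.19 in wild type (n = 3). At 60 min it was already lower in cds1, at 0.09 ± 0.05 (n = 3) against 0.78 ± 0.02 in wild type (n = 2 samples). Cdc22 differed from chk1 by -1.22 ± 0.16 (adjusted p = 2.76e-06). Its level at 120 min was 0.34 ± 0.06 in cds1, 1.15 ± 0.06 in rad3, 2.30 ± 0.22 in wild type and 2.62 ± 0.12 in chk1. At 60 min the cdc22 level was already lower in cds1 (0.86) and rad3 (0.64) than in wild type (2.03) and chk1 (1.92). Dut1 differed from chk1 by -1.26 ± 0.13 (adjusted p = 1.37e-09). The licensing gene cdc18 was not called in cds1 alone (-0.25 ± 0.14, adjusted p = 0.455), and its difference between the times in wild type was 0.61. The cdc18 level was 0.26 in cds1 and 2.73 in wild type at 120 min.

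Histone genes, transcribed in S phase, showed no called change in cds1. Of 10 measured members none passed in limma, and 1 had an unadjusted p under 0.05, as did 660 of all 4921 genes tested. The median was 0.02. The median change was -0.04 in rad3, 0.35 in wild type and 0.52 in chk1, and no member had a called difference from rad3. Htb1, the single H2B gene, stood at 0.17, -0.04 and -0.14 at 60 min and at -0.34, -0.20 and -0.39 at 120 min, and its difference was -0.31 ± 0.12 (adjusted p = 0.166, or 0.0154 with the replicate block). It differed from wild type by -0.90 ± 0.18 (adjusted p = 0.00357) and from chk1 by -1.06 ± 0.18 (adjusted p = 0.000188). The call against wild type was lost without wild type replicate 1 at 60 min (-1.09 to -0.72 over such fits). Histone H3 and H4 genes are near-identical copies, so their single values are uncertain.

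**Figure D3:**
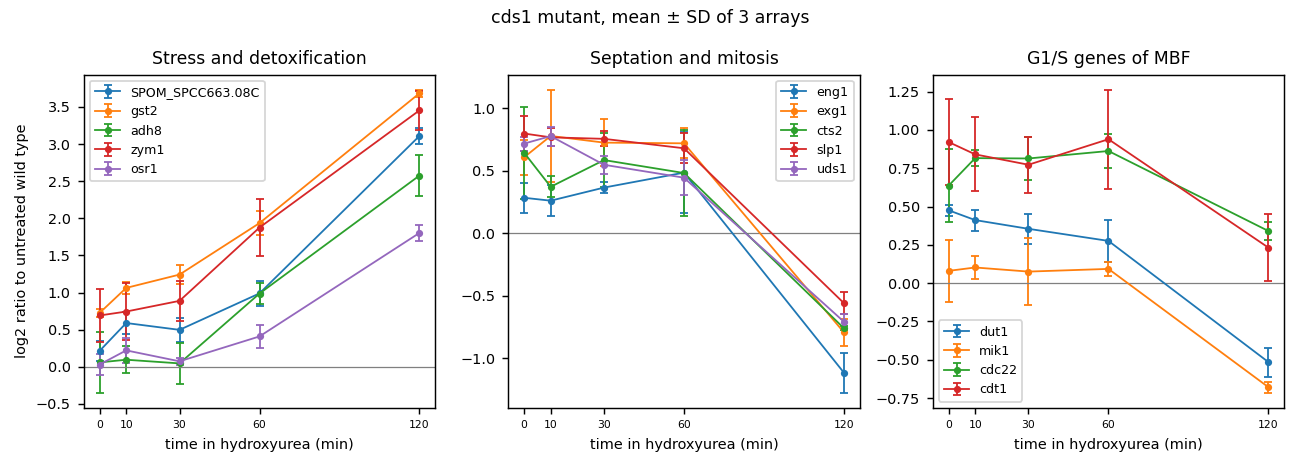
Log2 ratio to untreated wild type (y axis) against time in hydroxyurea (x axis, min) in the cds1 mutant for stress and detoxification genes, septation and mitosis genes and the 4 MBF genes that fell; points are means of 3 arrays and bars their SD. Median levels of all genes that fell changed from 0.20 at 30 min to -0.53 at 120 min.

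The increases were led by SPOM_SPCC663.08C, a protein-coding gene without a given name. Its values were 0.86, 1.18 and 0.93 at 60 min and 3.17, 3.18 and 2.98 at 120 min. The difference of 2.12 ± 0.15 is 4.35-fold (adjusted p = 1.25e-14). Its neighbours on the chromosome also rose: osr1 by 1.39 ± 0.13, SPOM_SPCC663.07C by 0.48 and SPOM_SPCC663.09C by 0.61. Osr1 stood at 0.23, 0.50 and 0.50 at 60 min and at 1.68, 1.84 and 1.89 at 120 min (adjusted p = 3.78e-11). SPOM_SPCC18B5.02C, which RefSeq lists as a pseudogene, rose by 1.82 ± 0.17 (adjusted p = 4.71e-11). Among called genes with a RefSeq position, 21 of 172 had a direct neighbour called the same way, in 12 pairs. Over all genes tested 2.05% rose and 1.59% fell. The count of neighbours that these shares alone would give was not worked out. Further pairs were slp1 with eng1 and cbp1 with exg1 among genes that fell, and gst2 with osr2, adh8 with tms1 and ntp1 with wwm2 among genes that rose. These pairs were picked out after their values were seen and carry no test.

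Genes of the oxidative stress response driven by Pap1 followed. Of 21 measured members 6 rose (gst2, caf5, srx1, pgr1, obr1 and sod2), or 28.6% against 2.05% of all genes, and the median was 0.23. With the replicate block 9 rose and 1 fell. Gst2, a glutathione S-transferase, stood at 2.04, 1.75 and 2.01 at 60 min and at 3.66, 3.66 and 3.74 at 120 min. Its difference of 1.75 ± 0.11 is 3.36-fold (adjusted p = 9.68e-17). Caf5, a drug efflux transporter, had values of 0.74, 0.51 and 0.65 and 1.64, 1.50 and 1.53, a difference of 0.92 ± 0.13 (adjusted p = 8.99e-07). The first of the caf5 probes gave 1.75 and the second 0.10, and the call was lost with the second probe alone and under quantile normalization. For caf5 all arrays at 120 min lay above all at 60 min, as they did for 8.31% of all genes. For gst2 the rule that chose the largest increases required this. Srx1, the sulfiredoxin that repairs overoxidised peroxiredoxin, rose by 0.65 ± 0.13 (adjusted p = 0.00116) from a level of 2.13 ± 0.25 (SD, n = 3). The superoxide dismutase gene sod2 rose by 0.34 ± 0.10 (adjusted p = 0.0321). Its call was lost without replicate 2 or 3 at 60 min or replicate 2 or 3 at 120 min (0.30 to 0.40 over such fits). The factor's own gene pap1 was at 0.23 ± 0.10 (adjusted p = 0.291). Thioredoxin reductase, trr1, was at 0.14 ± 0.13 (adjusted p = 0.758). The list's count of 6 was 3 when replicate 2 or 3 of either time was left out.

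Of 18 core environmental stress genes 4 rose (zym1, tms1, hsp9 and ntp1), a share of 22.2% against 2.05% of all genes. The list median was 0.12, and with the replicate block 6 rose. Zym1, a metallothionein, stood at 2.19, 1.45 and 1.98 at 60 min and at 3.72, 3.20 and 3.44 at 120 min, a difference of 1.58 ± 0.22 or 2.99-fold (adjusted p = 1.02e-06). Hsp9, a small heat shock protein, rose by 0.54 ± 0.14 (adjusted p = 0.0133) and the trehalase gene ntp1 by 0.50 ± 0.13 (adjusted p = 0.0163). The hsp9 call was lost without replicate 2 or 3 at 60 min or replicate 3 at 120 min (0.46 to 0.62 over such fits). The ntp1 call was lost without replicate 2 at 60 min or replicate 1 or 2 at 120 min (0.38 to 0.61 over such fits). The list's count of 4 was 2 without replicate 2 at 60 min. Many members were already high at 60 min and were not called later, such as the catalase gene ctt1, at 1.21 and then 1.29, and the trehalose-phosphate synthase gene tps1, at 2.00 and then 2.28. The stress transcription factor gene atf1 was at -0.27 ± 0.12 (adjusted p = 0.31). Among 20 chaperone genes 1 rose (5%, against 2.05% of all genes), hsp16, which had the highest level of the genes named here. It stood at 5.33, 5.52 and 5.51 at 60 min and at 5.97, 5.89 and 6.15 at 120 min, a difference of 0.55 ± 0.15 (adjusted p = 0.0197). The hsp16 call was lost without replicate 1 at 60 min or replicate 3 at 120 min (0.48 to 0.61 over such fits). Adh8, a predicted alcohol dehydrogenase, rose by 1.59 ± 0.19 and ubi4, the polyubiquitin gene, by 1.06 ± 0.19. Under quantile normalization none of the 18 core stress genes was called and of the 21 Pap1 genes 1 was. Of the 15 largest increases 7 remained called under it, and of the 15 largest decreases 14 did.

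Several of these increases were larger in cds1 than in wild type and chk1 with the deposited scaling. Under quantile normalization 8 of the 10 named calls against wild type and 6 of the 10 against chk1 were lost, and those of SPOM_SPCC663.08C and osr1 were among them in both comparisons. Between 60 and 120 min SPOM_SPCC663.08C was at 0.55 in wild type, 0.64 in chk1 and 1.49 in rad3. Its change in cds1 exceeded that in wild type by 1.57 ± 0.23 (adjusted p = 1.6e-05) and that in chk1 by 1.48 ± 0.23 (adjusted p = 4.27e-05). Osr1 exceeded wild type by 1.34 ± 0.19 and chk1 by 1.17 ± 0.19. Nab3 rose by 1.01 ± 0.10 in cds1 and exceeded chk1 by 1.16 ± 0.14 (adjusted p = 3.53e-07). In the Pap1 list gst2 and caf5 exceeded wild type and gst2 exceeded chk1, the smallest of these differences being 0.66 ± 0.16 for gst2 against chk1 (adjusted p = 0.042). None of the 18 core stress genes had a called difference from any of the 3 strains. Against rad3 no difference was called for these genes; for SPOM_SPCC663.08C it was 0.63 ± 0.23 (adjusted p = 0.673).

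**Figure D4:**
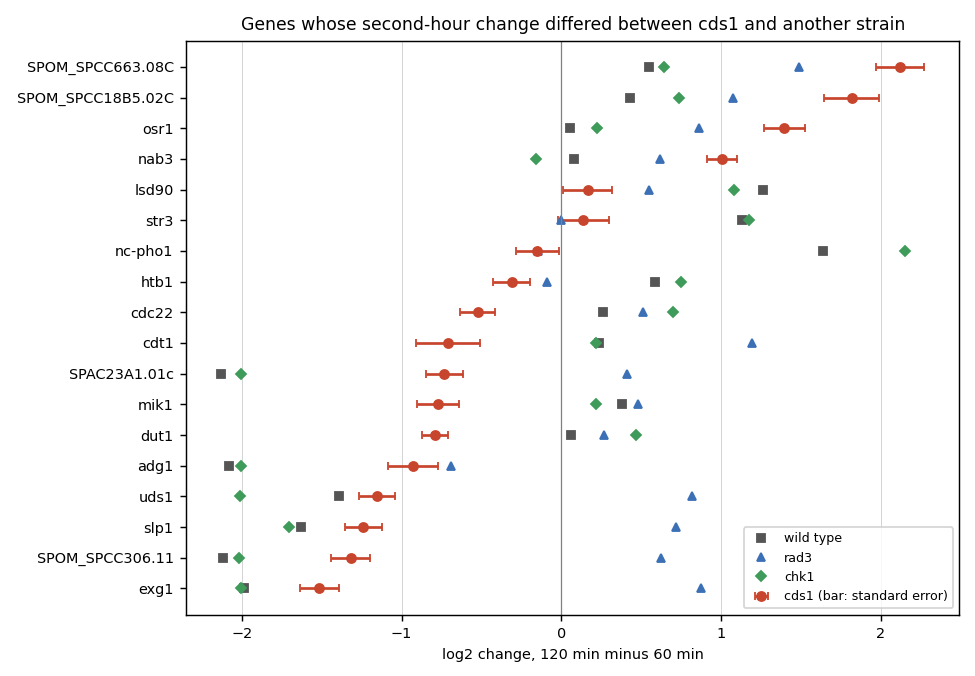
Log2 change from 60 to 120 min (x axis) of the genes with the largest called differences between cds1 and another strain (y axis); red circles are cds1 with its standard error, squares wild type, triangles rad3 and diamonds chk1. Exg1 lies at -1.51 in cds1 and 0.88 in rad3, and nc-pho1 at -0.15 in cds1 and 1.64 in wild type.

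Some genes were singled out by the other strains and not by a change in cds1. The non-coding RNA nc-pho1, also called prt, stood at 0.13, -0.29 and -0.28 at 60 min and at -0.14, -0.37 and -0.39 at 120 min in cds1, a difference of -0.15 ± 0.13 (adjusted p = 0.724) with overlapping arrays. The same difference was 1.64 in wild type and 2.15 in chk1, and the differences from them were -1.79 ± 0.20 (adjusted p = 6.33e-08) and -2.30 ± 0.20 (adjusted p = 2.08e-11). In rad3 it was -0.14. Str3, a siderophore-iron transporter, was at 0.14 ± 0.16 in cds1, 1.13 in wild type and 1.18 in chk1. In rad3 its mean level was -0.03 at both times. Its difference from wild type, -0.99 ± 0.24 (adjusted p = 0.0392), lost its call in 9 of 11 fits that left out 1 sample, and kept it only without wild type 120 min replicate 3 or cds1 60 min replicate 3. In these 11 fits it ranged from -1.22 to -0.75. Of 11 iron uptake genes 1 rose in cds1 (9.09%, against 2.05% of all genes). It was sib1, which makes the siderophore ferrichrome (0.51 ± 0.13, adjusted p = 0.0159). The sib1 call was lost without replicate 1 or 3 at 60 min or replicate 2 at 120 min (0.37 to 0.64 over such fits). Lsd90 was at 0.16 ± 0.15 in cds1 and 1.26 in wild type, which differ by -1.10 ± 0.23 (adjusted p = 0.00751). That call was lost without wild type replicate 1 at 60 min, wild type replicate 2 at 120 min or cds1 replicate 3 at 120 min (-1.20 to -0.96 over such fits). The mean lsd90 level in cds1 had already gone from 0.39 at 0 min to 1.80 at 60 min, against 0.63 in wild type at 60 min. At 120 min it was 1.97 in cds1 and 1.89 in wild type.

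Lists related to growth were read against the 2.05% of all genes that rose and the 1.59% that fell. Of all 4921 genes tested 2459 had a change below 0 and 2462 a change above 0. Of 115 ribosomal protein genes 110 had a change below 0, the median was -0.19, and 2 fell (rpl1603 and rpl302; 1.74%), a share near that of all genes, while rps2802 rose. With the replicate block 9 fell, and without 1 array at a time 1 to 3 fell and at most 1 rose. The rpl302 call was lost without replicate 1 or 3 at 60 min or replicate 1 or 2 at 120 min (-0.83 to -0.44 over such fits). The rps2802 call was lost without replicate 1 at 60 min or replicate 2 or 3 at 120 min (0.48 to 0.84 over such fits). Rpl1603 stood at -0.38, -0.35 and -0.33 at 60 min and at -1.51, -1.20 and -1.24 at 120 min, a difference of -0.96 ± 0.13 (adjusted p = 5.4e-07). Many ribosomal protein genes have near-identical copies, so single values are uncertain. Of 34 proteasome genes 32 had a change above 0, the median was 0.21 and 3 rose (pre4, pup1 and rpn12; 8.82%), or 5 with the replicate block and 0 under quantile normalization. Pup1, a core particle subunit, rose by 0.40 ± 0.12 (adjusted p = 0.0485), and its call was lost without replicate 1 or 3 at 60 min or replicate 2 or 3 at 120 min (0.30 to 0.49 over such fits). Without 1 array at a time 0 to 3 proteasome genes rose, and the 0 came without replicate 2 at 120 min. The count was 3 when replicate 1 at 60 min was left out, and 1 in each of the other 4 fits. Of 14 sulfate assimilation genes 2 fell (14.3%), or 6 with the replicate block, and the median was -0.29. Met17, the homocysteine synthase gene, stood at 0.84, 0.60 and 0.81 at 60 min and at -0.32, -0.01 and 0.06 at 120 min, a difference of -0.84 ± 0.14 (adjusted p = 4.6e-05), and the sulfate permease gene sul2 fell by 0.50 (SE 0.11). The sul2 call was lost without replicate 1 at 120 min (-0.64 to -0.38 over such fits). Of 95 ribosome biogenesis genes 1 rose, noc4 (0.77 ± 0.18), and the median was 0.01. For noc4 the first probe gave 1.55 and the second -0.016, and for rps2802 they gave 1.50 and -0.13. The ribosomal protein median was also below 0 in wild type (-0.32), rad3 (-0.27) and chk1 (-0.13). In the same strains the proteasome median was 0.16, 0.21 and 0.12, and that of sulfate assimilation -0.26, -0.29 and -0.07. No member of these lists had a called difference between cds1 and another strain in limma.

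Cell wall genes went both ways. Of 20 members 3 fell (15%, against 1.59% of all genes) and 1 rose (5%, against 2.05%). Those that fell were exg1, gas1 and gas5. The alpha-glucan synthase gene mok12 rose (0.49 ± 0.12, adjusted p = 0.00504), and its call was lost without replicate 2 at 120 min (0.37 to 0.57 over such fits). Gas1, a beta-1,3-glucanosyltransferase, stood at 0.75, 0.07 and 0.40 at 60 min and at -0.36, -0.56 and -0.34 at 120 min, a difference of -0.83 ± 0.16 (adjusted p = 0.000327). In rad3 the gas1 difference was 0.72, and exg1, gas1, gas5 and chs2 were called below rad3. Among genes of DNA metabolism, 1 of 45 replication genes fell (2.22%, near the share of all genes), the polymerase delta subunit gene cdm1 (-0.55 ± 0.13, adjusted p = 0.00714), whose call was lost without replicate 2 at 60 min (-0.65 to -0.40 over such fits). Of 32 repair genes none was called in limma, where 2 had an unadjusted p under 0.05, as did 660 of all 4921 genes. Of 20 checkpoint genes 2 fell (10.0%), mik1 and srr1 (-0.42 ± 0.11, adjusted p = 0.0132), and the srr1 call was lost without replicate 1 at 60 min or replicate 1 or 3 at 120 min (-0.49 to -0.29 over such fits). Of 9 genes of ribonucleotide reductase and its control 2 fell (22.2%), cdc22 and dut1, with a median of -0.03. Mfm2, a gene of the M-factor pheromone with near-identical copies, fell by 1.01 (SE 0.13, adjusted p = 8.56e-08). It was the 1 called gene of 29 in the mating list (3.45%, against 1.59% of all genes that fell).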

How the data were processed

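The deposited values were log2 ratios of Cy5 (sample) to Cy3 (untreated wild type), per the labels. All were log2 of a ratio with 3 decimals (relative tolerance 1e-05). No scaling was added to that of the authors, which was not given in the sources used here. The 2 probes of each of 4929 features were averaged; 4921 with values on at least 2 arrays of every group (1 sample where merged) were tested, and 4816 had 1 symbol, updated through RefSeq (assembly ASM294v3) gene IDs for 4791. Arrays of a group whose difference did not repeat between probes (r under 0.1) were averaged, which merged 9 pairs of 65, none in cds1, and left 61 samples in 25 groups.

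In R 4.3.3, limma 3.58.1 (lmFit, eBayes) estimated 1 mean per group, all groups sharing the spread, with Benjamini-Hochberg adjustment over all features tested and a threshold of 0.05. Differences between strains were interaction terms. The script was tested on simulated data. Same-numbered cds1 arrays at 60 and 120 min deviated together from their group means (r 0.159, 0.399 and 0.301 across genes), so the replicate number was also fitted as a block. Other alternatives were centring, quantile normalization, single probes, filters, array weights, robust eBayes, 70 separate arrays, only the compared strains, and each sample left out. In the block, a merged sample had its first number.

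The comparison and the gene lists were chosen with earlier results of these data known. Lists came from general knowledge and have no test of their own. Named genes were the label checks, the 15 largest called changes each way with no overlap between arrays, up to 4 called members of each list (or 2 where none was called), and the 5 largest called differences each way between strains. Further list members are named as examples or to complete a count, after their values were seen. Promoter motifs were not searched. Tables came from pandas 2.3.3 and numpy 2.4.6 under Python 3.11.15, and figures from matplotlib 3.10.9.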

Additional observations from a re-analysis of the deposited data

Results flagged for a closer look

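Differences between strains in the change from 60 to 120 min were tested as interaction terms, and those below are the 5 largest each way that passed; no explanation was tested. A positive value means that the change in cds1 lay above that of the other strain, and the error is the standard error of limma.

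Against wild type the change in cds1 was higher for SPOM_SPCC663.08C by 1.57 ± 0.23, for SPAC23A1.01c by 1.39 ± 0.17, for SPOM_SPCC18B5.02C by 1.39 ± 0.26, for osr1 by 1.34 ± 0.19 and for adg1 by 1.15 ± 0.24. It was lower for nc-pho1 (-1.79 ± 0.20), mik1 (-1.15 ± 0.20), lsd90 (-1.10 ± 0.23), str3 (-0.99 ± 0.24) and htb1 (-0.90 ± 0.18). The call of SPOM_SPCC18B5.02C was lost without wild type replicate 2 and 3 at 60 min (1.19 to 1.52 over such fits).

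Against rad3 the change in cds1 was lower for exg1 (-2.39 ± 0.18), uds1 (-1.97 ± 0.17), slp1 (-1.96 ± 0.17), SPOM_SPCC306.11 (-1.94 ± 0.19) and cdt1 (-1.90 ± 0.30). The cdt1 level went from 0.73 ± 0.14 (SD, n = 2 samples) to 1.92 ± 0.24 (n = 3) in rad3, a difference that was not tested on its own.

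Against chk1 the change in cds1 was higher for SPOM_SPCC663.08C (1.48 ± 0.23), SPAC23A1.01c (1.27 ± 0.17), osr1 (1.17 ± 0.19), nab3 (1.16 ± 0.14) and SPOM_SPCC18B5.02C (1.08 ± 0.26). It was lower for nc-pho1 (-2.30 ± 0.20), dut1 (-1.26 ± 0.13), cdc22 (-1.22 ± 0.16), htb1 (-1.06 ± 0.18) and str3 (-1.04 ± 0.24). The call of SPOM_SPCC18B5.02C was lost without cds1 replicate 1 or 2 at 60 min, cds1 replicate 1 at 120 min, chk1 replicate 1 at 60 min or chk1 replicate 2 or 3 at 120 min (0.89 to 1.2 over such fits), and that of str3 without cds1 replicate 1 at 60 min, cds1 replicate 3 at 120 min, chk1 replicate 1 or 2 and 3 at 60 min or chk1 replicate 1 or 2 at 120 min (-1.18 to -0.90 over such fits).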

How the results depend on the processing

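The named called genes kept their direction under all alternatives except quantile normalization and the second probe alone. Quantile normalization gave hsp9 -0.13, ntp1 -0.0053 and srx1 -0.013, and the second probe alone gave rps2802 -0.13 and noc4 -0.016. Hsp16 was at 0 under quantile normalization, which gives equal ranks equal values on every array. That method therefore cannot show a change in a gene that keeps its rank. Of 62 named genes called between 60 and 120 min, 23 were called in every refit that tested them, the required change of at least 1 left aside, and quantile normalization lost 36 of the calls. It lost 8 of 10 named differences from wild type, 1 of 5 from rad3 and 6 of 10 from chk1. Of calls, 179 in the fit reported, quantile normalization gave 43 (15 higher and 28 lower), the first of the probes 100, the second 94, array weights 617 and a required change of at least 1 gave 20, which by construction can only remove calls. The cause of the other shifts was not tested. Leaving out each array gave 122 to 164 calls.

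Same-numbered arrays paired, and the fixed replicate block gave 379 calls, the random replicate block 367 and the fixed replicate block with cds1 arrays alone 275. None of these 3 lost any of the 62 named calls; htb1 and msh6 were gained in the first and second of them, urg1 in all 3 and urg2 in the last. Fixed and random replicate blocks gave 39 and 36 differences from wild type, 46 and 42 from rad3 and 99 and 98 from chk1.

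The 20 differences from wild type became 2 with quantile normalization, 35 with 70 arrays as separate samples, 8 and 10 with either probe, 72 with array weights and 8 with a difference of at least 1. They were 10 to 21 without 1 sample, with 12 without wild type replicate 1 at 60 min, 10 without its replicates 2 and 3 and 11 without cds1 replicate 3 at 120 min. The 26 differences from rad3 became 15 with quantile normalization, 47 with every probe as its own feature and 41 with array weights, and were 22 to 29 without 1 sample. The 22 differences from chk1 became 5 with quantile normalization, 61 with 70 arrays, 8 and 13 with either probe and 12 with a difference of at least 1. They were 16 to 35 without 1 sample, the highest being without chk1 replicates 2 and 3 at 60 min. Centring, missing-value filters, robust eBayes and a fit of the compared strains alone kept every count within 1.5 times. With 3 arrays a group and no signal over background in the files, small changes of dim genes could not be judged.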

Other observations

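Single genes of metabolic lists changed in the second hour in cds1. Over all genes tested 2.05% rose and 1.59% fell, so 1 called member is no result about its list. The glyceraldehyde-3-phosphate dehydrogenase gene gpd3 stood at 1.42, 1.18 and 1.30 at 60 min and at 2.16, 1.81 and 2.07 at 120 min. It rose by 0.71 ± 0.18 (adjusted p = 0.0103) as the 1 called gene of 16 in glycolysis, where the median was 0.01. The call was lost without replicate 2 at 60 min or replicate 1 or 3 at 120 min (0.64 to 0.81 over such fits). Glt1, the glutamate synthase that carries an iron-sulfur cluster, stood at -0.80, -0.68 and -0.47 at 60 min and at -1.41, -1.22 and -1.0 at 120 min and fell by 0.57 (SE 0.13, adjusted p = 0.00533), as 1 of 16 iron use genes. Its call was lost without replicate 3 at 60 min or replicate 1 at 120 min (-0.67 to -0.47 over such fits). The galactokinase gene gal1 fell by 0.65 (SE 0.17) as 1 of 15 genes of hexose uptake and galactose use, and its call was lost without replicate 2 or 3 at 60 min or replicate 2 or 3 at 120 min (-0.80 to -0.54 over such fits). Atp2, the beta subunit of the mitochondrial ATP synthase, fell by 0.39 (SE 0.10) as 1 of 47 respiratory chain genes (2.13%, near the share of all genes). Its call was lost without replicate 1 or 3 at 60 min or replicate 1 or 2 at 120 min (-0.47 to -0.30 over such fits). The proline permease gene put4 fell by 0.47 (SE 0.13) as 1 of 16 nitrogen starvation genes, and its call was lost without replicate 1 or 2 at 60 min or replicate 1 or 2 or 3 at 120 min (-0.57 to -0.38 over such fits). The flocculin gene pfl3 fell by 0.52 (SE 0.13) as 1 of 8, and its call was lost without replicate 1 at 60 min or replicate 1 at 120 min (-0.60 to -0.43 over such fits).

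Of the uracil-regulated genes, urg1 stood at 1.13, 1.01 and 0.91 at 60 min and at 1.52, 1.85 and 1.42 at 120 min. Its difference was 0.58 ± 0.19 (adjusted p = 0.0803). Of the 5 genes of that list none was called in limma, where 2 had an unadjusted p under 0.05, as did 660 of all 4921 genes. The 1 measured retrotransposon, Tf2-11, was at 0.27 ± 0.19 (adjusted p = 0.618). Among the 15 largest increases not yet described, SPOM_SPAC11D3.01C rose by 1.18 ± 0.14, SPOM_SPBC215.11C by 1.17 ± 0.26, SPOM_SPAPB24D3.08C by 1.17 ± 0.12, dhd1 by 1.09 ± 0.14, SPOM_SPAC27D7.09C by 1.09 ± 0.19, cmt1 by 0.99 ± 0.16 and tsp0 by 0.95 ± 0.16. The call of SPOM_SPBC215.11C was lost without replicate 2 at 120 min (0.97 to 1.35 over such fits). Among the 15 largest decreases, cts2 fell by 1.24 (SE 0.15), SPOM_SPAC2H10.01 by 0.92 (SE 0.20), pun1 by 0.79 (SE 0.14) and SPOM_SPBPB10D8.01 by 0.78 (SE 0.13). The call of SPOM_SPAC2H10.01 was lost without replicate 1 at 120 min (-1.09 to -0.69 over such fits). SPOM_SPAC2H10.01 lies next to adg1, which also fell. Of the 179 called genes, 4 had probes whose differences were of opposite sign (2.23%), against 28.7% of all genes tested.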
